A study of Mus musculus with 2 samples.

Results

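The mirtron-class microRNA genes of the mouse are a numbered series of short intronic hairpins, here all genes of the count tables whose symbol is Mir followed by a number from 6896 to 7093. They were chosen by symbol alone, and 177 of the 1973 gene rows met the rule. Their small RNA reads were counted in the intestine of mouse embryos of strain B6NCrl at 14.5 days of development, in 2 libraries that the labels call biological replicates 1 and 2 of a single group. Both libraries were made from total RNA with inserts under 30 bases. No treatment, genotype or second condition is named, and both samples share strain, age and tissue. Per the labels, a sample is the intestine of 1 pup although its sex is listed as mixed, and the collection day differs between the replicates, so day and replicate cannot be told apart.

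MicroRNAs guide Argonaute proteins to messenger RNAs, mostly through their seed, which spans bases 2 to 8, and lower the output of those messages. Most are cut out of a longer transcript by the nuclease Drosha and then trimmed by Dicer. A mirtron skips Drosha: the spliceosome releases an intron that folds into a hairpin, which Dicer then cuts. In a tailed mirtron only 1 hairpin end is made by splicing, and the extra intron sequence at the other end is removed by other nucleases.

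The annotation placed these genes at splice sites. All 177 lay on the strand of a protein-coding host gene, in or across an intron, in 173 different hosts on 19 chromosomes. That they are intronic is part of how the series is described. The choice was by symbol, but the series is named for mirtrons, which have ends made by splicing. The positions of the ends are therefore not independent of the choice. The 3′ end of the hairpin coincided with the last base of an intron in 164 of 177, and the 5′ end with the first base of an intron in 18. Allowing 5 bases, 150 genes (84.7%) had only the 3′ end at a splice site, 15 had both ends there, 4 had only the 5′ end and 8 had neither. Thus 169 of 177 (95.5%) had at least 1 end at a splice site, against 43 of the 1717 other located microRNA genes (2.50%). No test was run on this contrast.

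The class therefore consisted chiefly of hairpins at the 3′ end of longer introns, with few whole-intron mirtrons. In the 150 with only the 3′ end at a splice site, the intron had a median length of 494 bases (77 to 36269), and the hairpin was preceded by a median of 427.5 bases of intron (7 to 36205). The 15 with both ends at splice sites filled introns of 67 to 137 bases. Of the 8 with neither end within 5 bases, 6 ended 6 or 7 bases inside the following exon. The others were Mir7036b, in the host Add1, and Mir7025, whose hairpin began 30 bases before the intron of Pdgfra, within the preceding exon. Hairpins had a median length of 66 bases (52 to 137).

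**Figure D1:**
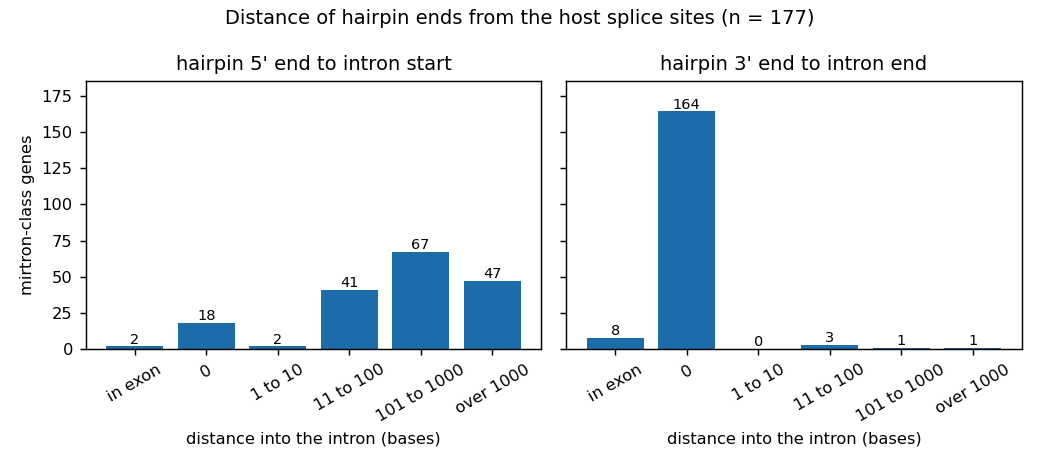
Distance in bases from each hairpin end to the corresponding end of its host intron, for the 177 mirtron-class genes; bars count genes, and "in exon" means that the hairpin reaches past the intron. The right panel is nearly a single bar, with 164 genes ending exactly at the intron's last base, while the left panel is spread, with 47 genes starting over 1000 bases into the intron.

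The hairpin with the highest level in each of the 4 positional classes shows the geometry. The sequences are from RefSeq for GRCm38.p6, and capitals mark the annotated mature microRNAs of both arms.
Mir6944: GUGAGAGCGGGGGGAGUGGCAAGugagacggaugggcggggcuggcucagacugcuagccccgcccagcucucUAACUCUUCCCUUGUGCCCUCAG
Mir7083: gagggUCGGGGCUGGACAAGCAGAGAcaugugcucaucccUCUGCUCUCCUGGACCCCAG
Mir6936: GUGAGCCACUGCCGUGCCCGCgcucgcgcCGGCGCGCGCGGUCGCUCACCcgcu
Mir7025: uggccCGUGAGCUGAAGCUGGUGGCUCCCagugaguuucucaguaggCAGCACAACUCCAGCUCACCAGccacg
Mir6944 (chr13:55477681-55477776, minus strand) fills a 96-base intron of Dbn1, which encodes the actin-binding protein drebrin; it opens with GU and closes with AG, the letters at the ends of most introns. Mir7083 (chr9:21809941-21810000, minus strand) has only its 3′ end at a splice site, the last 60 of the 1833 bases of an intron of Dock6, an exchange factor for small GTPases. Mir6936 (chr11:120624823-120624876, minus strand) starts with an intron of the deacetylase gene Sirt7 and stops 12 bases before its end. Mir7025 (chr5:75176831-75176904, plus strand) crosses the 5′ splice site in Pdgfra, a receptor of mesenchymal cells.

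RefSeq hairpins were found for 160 of the 177 genes, and most carried the letters of an intron's end. Of these, 148 (92.5%) ended in AG, against 8.89% of 709 other microRNA hairpins in the tables, and 27 began with GU. Both letters at both ends occurred in 21. As 164 of the 177 genes end at an intron's last base, the AG ends largely restate that position. The annotated 3p microRNA reached the last base of its hairpin in 114 of 152 cases, and 119 of 152 ended in AG. None of the 160 hairpins shared a stretch of 20 bases with another RefSeq microRNA hairpin of the tables at another place. Rows without a RefSeq hairpin, 17 members among them, were not compared.

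The mature sequences of the 8 genes with the highest levels are shown for the base composition of their arms. Capitals mark the seed.
miR-6944-5p: gUGAGAGCggggggaguggcaag
miR-6944-3p: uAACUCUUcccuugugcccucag
miR-7083-5p: uCGGGGCUggacaagcagaga
miR-7083-3p: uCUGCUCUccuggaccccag
miR-6945-5p: uCCUGGGAggggcagccccugg
miR-6945-3p: uCUGAGCUcugcccuucccau
miR-7069-5p: uUGGGGGCcugggagggugacac
miR-7069-3p: cCUGCCCUgccaaccccuaca
miR-6897-5p: uGGGGGCAgugucacacgcuguu
miR-6897-3p: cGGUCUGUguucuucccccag
miR-6975-5p: gCUGGGGAgaaagggguuuggca
miR-6975-3p: uCUCUCCUuucuccuccuag
miR-7026-5p: uUCUGAGAccaugggguauau
miR-7026-3p: uGUGCUUUcuggucuuggcuuag
miR-7018-5p: gUGAGCAGacagggaguggugggg
miR-7018-3p: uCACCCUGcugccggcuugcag
In 7 of the 8 genes the 5p sequence holds more G than the 3p sequence. The exception is Mir7026, with 28.6% G in the 5p and 30.4% in the 3p sequence. In miR-6944-5p, 60.9% of the bases were G, and in miR-6944-3p 73.9% were C or U. The strongest case among those shown was miR-6975-3p, with 90% C or U. Over all members with an annotated arm, G made up a median of 45.5% of the 154 5p sequences (quartiles 39.1 and 50.0%), against 27.3% in 433 5p sequences of other genes. C and U made up a median of 71.4% of the 152 3p sequences (quartiles 65.2 and 77.3%), against 54.5% in 437 others. The hairpins also had more G and C, with a median of 57.8% against 50.6%. Folded with RNAfold, the members had a median minimum free energy of -39.8 kcal/mol per 100 bases against -41.7 in the others. These values describe the annotation and were not tested.

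**Figure D2:**
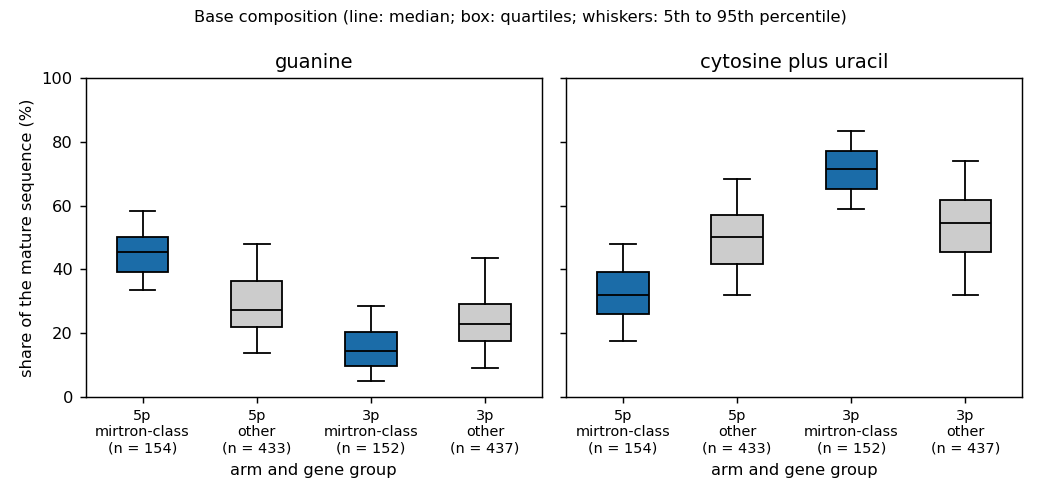
Share of G (left) and of C plus U (right) in annotated mature microRNAs, in percent, by arm, for mirtron-class genes (blue) and other microRNA genes of the tables (grey); lines are medians, boxes quartiles and whiskers the 5th and 95th percentiles. The mirtron-class 5p arm stands higher in G (median 45.5%) and the 3p arm higher in C plus U (median 71.4%) than the same arms of other genes.

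Seeds were mostly private to 1 gene. The 306 mature sequences held 282 different seeds, 20 of which occurred in 2 or more members, at most 3. The seed CACCCUG was common to miR-7018-3p, miR-7023-3p and miR-7068-3p, whose genes summed to 2.84 CPM, where CPM is sense-strand counts scaled to a library total of 1000000. The seed GGGGAGG was common to miR-7030-5p, miR-7075-5p and miR-7076-5p (1.70 CPM for the 3 genes). In 31 cases a member's seed also occurred in a microRNA outside the series. The seed of miR-7069-3p, CUGCCCU, is that of miR-18a-3p, and the seed UGUGCUU of miR-7002-3p is that of miR-218-5p. The tables count reads per gene and do not separate the arms, so no level can be given for either arm or seed.

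The libraries differed in depth. Sense-strand counts over all genes came to 15090126 in replicate 1 and 3903472 in replicate 2, so 1 count stands for 0.0663 CPM in the deeper library and for 0.256 CPM in the other. A gene with 0 counts may reach 0.199 CPM in replicate 1 and 0.769 in replicate 2, taking 3 counts as the limit. Intervals and limits cover counting error only. Among markers of the labelled tissue, the smooth muscle gene Mir143 had 157004 ± 15498 CPM and the epithelial gene Mir192 3384 ± 228 CPM (SD, n = 2), while the neuronal Mir124a-2 and Mir124a-3 had 0 counts in both libraries and Mir124a-1 had 1 and 0. These neuronal genes are near-identical copies, so reads aligned to several places may be missing, and the neural gene Mir137, chosen after its value was seen, had 30812 and 9041 counts. Markers of other cells were also present: liver Mir122 at 45.4 ± 7.89 CPM, erythroid Mir451a at 231 and 374 CPM in replicates 1 and 2, and myeloid Mir223 at 426 ± 66.0 CPM. Of the striated muscle genes listed beforehand, Mir1a-2 matched no row by name. Mir1a-1 had 5 and 2 counts, Mir133a-2 1 and 0, and Mir133a-1 0 in both. By their names these are also copies, so the same limit holds for them. Other striated muscle genes, chosen after their values were seen, had more. Mir208b had 255 and 71 counts, Mir206 159 and 35, Mir499 48 and 12, and Mir208a 24 and 2.

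As a class, these genes had very low levels, with reads at many members. All 177 genes together gave 1563 counts in replicate 1 and 435 in replicate 2. These are 103.6 CPM (95% Wilson interval 98.6 to 108.8) and 111.4 CPM (101.4 to 122.4), a mean of 107.5 ± 5.56 CPM (SD, n = 2) or 0.0108% of all sense counts. The intervals of the libraries overlap. The whole class thus had about the level of a single moderately expressed microRNA: Mir1981, a whole-intron mirtron of Marc2 outside the number range, alone had 96.2 ± 1.69 CPM. Mir1981 was named after its value was seen.

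Many members had reads and few had many. At least 10 counts in both libraries were reached by 5 of 177 genes (2.82%), against 18.4% of all 1973 rows. At least 1 count in both was reached by 108 (61.0%), against 31.0% of all rows. All rows include 931 genes whose names fall in no number range. Only 3.01% of these passed the limit of 1 count and 1.40% that of 10, so they lower both shares of all rows. In replicate 1, 36 members had 0 counts, 94 had 1 to 9, 45 had 10 to 40, and 2 had more. In replicate 2, 64 genes had 0 counts and 6 reached 10. The median gene had 5 counts in replicate 1 and 1 in replicate 2. No read in either library was recorded for 31 genes. When replicate 1 was thinned to the depth of replicate 2, 109 members kept a count there, close to the 113 with a count in replicate 2, and 87 had one in both.

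The same shares in other groups of microRNA genes are given for comparison. Of the 96 genes numbered above the series, 34.4% had a count in both libraries and 9.38% had at least 10. Of the 226 genes numbered from 2000 up to the series, the shares were 36.3% and 16.4%. Genes numbered under 1000, which hold most well-studied microRNAs, reached 70.1% and 59.8%. The 43 other genes with a hairpin end at a splice site had a count in both libraries about as often as the class (62.8%), while 32.6% of them reached 10. Their sum, 7951 ± 423 CPM, came mostly from Mir369 (4177 ± 551 CPM) and Mir382 (3380 ± 119 CPM), whose hairpins touch splice sites of the noncoding host Mirg; these 2 were named after their values were seen. These shares are descriptions, and no test of the differences was run.

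**Figure D3:**
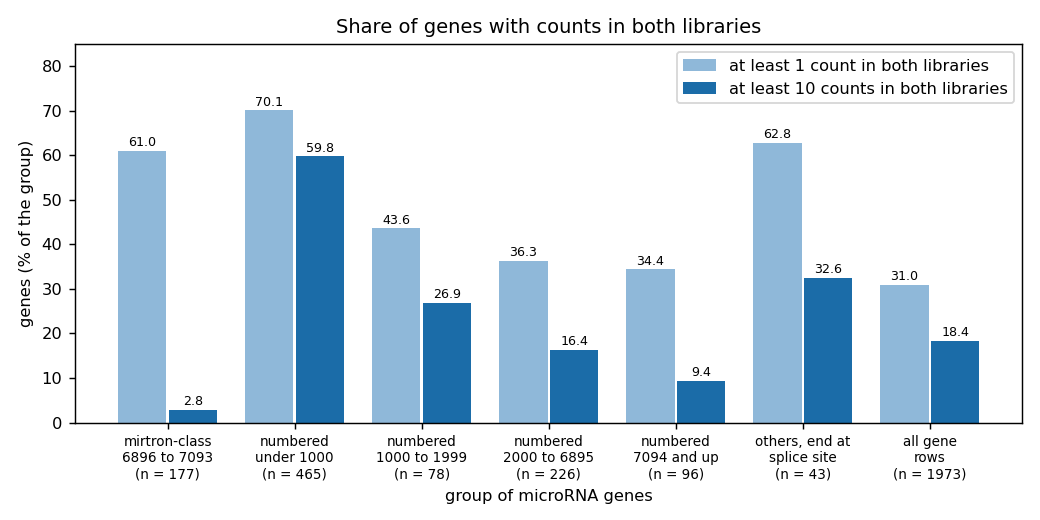
Percentage of genes with at least 1 count (light bars) and at least 10 counts (dark bars) in both libraries, by group of microRNA genes, with the number of genes under each. The mirtron-class pair is the most unequal, 61.0% and 2.8%.

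Mir6944 stood clearly above every other member. It had 260 counts in replicate 1 and 72 in replicate 2, which are 17.2 CPM (exact Poisson 95% interval 15.2 to 19.5) and 18.4 CPM (14.4 to 23.2), a mean of 17.8 ± 0.859 CPM (SD, n = 2). It held 16.6% of the class's counts in each library. Among all rows it ranked 264 by mean CPM. The second, Mir7083, had 87 and 31 counts, or 5.77 and 7.94 CPM (6.85 ± 1.54 CPM). In both libraries Mir6944 exceeded Mir7083, 2.99-fold in replicate 1 (exact 95% counting interval 2.34 to 3.85) and 2.32-fold in replicate 2 (1.50 to 3.66). Levels of different genes are compared here as counts per gene, without scaling to hairpin length. This assumes that the reads are mature microRNAs of about 1 length, and read lengths and positions were not examined. Ligation and PCR favour some sequences, so counts are not molecules.

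Mir7083 in turn stood above the genes that follow it. It exceeded Mir6945 2.81-fold in replicate 1 (1.84 to 4.38) and 3.10-fold in replicate 2 (1.48 to 7.09). Mir6945 (ENSMUSG00000099096.1; chr13:55507625-55507692) lies at the end of an intron of Pdlim7, a gene for a PDZ and LIM domain protein bound to actin filaments, and had 31 and 10 counts (2.31 ± 0.359 CPM). Mir7069, in the gene for a subunit of phenylalanyl-tRNA synthetase (Farsa), had 30 and 10 counts (2.27 ± 0.406 CPM). Mir7026, in the chromatin remodeller gene Ep400, had 18 and 10 counts (1.88 ± 0.968 CPM). With Mir6944 and Mir7083 these were the 5 genes with at least 10 counts in both libraries.

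Below Mir7083, ratios were computed down to position 12, and in all neighbouring pairs but 1 the intervals held 1 in both libraries. The exception was Mir7026 over Mir7018 in replicate 1, at 0.545-fold (0.289 to 0.997), against the order of their means, while replicate 2 gave 2.00-fold (0.623 to 7.46). From Mir6945 at position 3 to Mir7075 (in the telomere-binding protein gene Terf2) at position 12, the counts gave 1.00-fold in replicate 1 (0.588 to 1.70) and 2.50-fold in replicate 2 (0.721 to 10.9). Mir6897 and Mir6975 had the same counts, 26 and 9. They lie in Uggt1, which acts in glycoprotein folding, and Ddx39b, an RNA helicase of splicing and mRNA export. Mir7018, a whole-intron hairpin in the perlecan gene Hspg2, had 33 and 5 counts, and Mir6951 in the antizyme inhibitor gene Azin1 had 31 and 5. Mir7089 in the cell-cycle phosphatase gene Cdc25a had 27 and 6. Mir6935 in the cytoplasmic actin gene Actg1 had 38 and 3, the third highest count of the class in replicate 1 and a low one in replicate 2.

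A further 12 of the 25 highest genes had means of 1.06 to 1.51 CPM. In falling order they were Mir7049 (host Pak4), Mir6900 (Ndufa10), Mir6934 (Tbc1d16), Mir7025 (Pdgfra), Mir6928 (Atp6v0a1), Mir7035 (Rasa4), Mir7064 (Cars), Mir6903 (Atp2b4), Mir6979 (Diaph1), Mir7068 (Cherp), Mir6971 (Skiv2l) and Mir7041 (Lrig1). Among these hosts, Ndufa10 encodes a subunit of respiratory complex I, and Lrig1 is known as a marker of intestinal stem cells. Messenger RNA of the hosts was not measured. Of the 10 highest genes together, 569 counts fell in replicate 1 and 167 in replicate 2, which were 36.4% and 38.4% of the class.

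**Figure D4:**
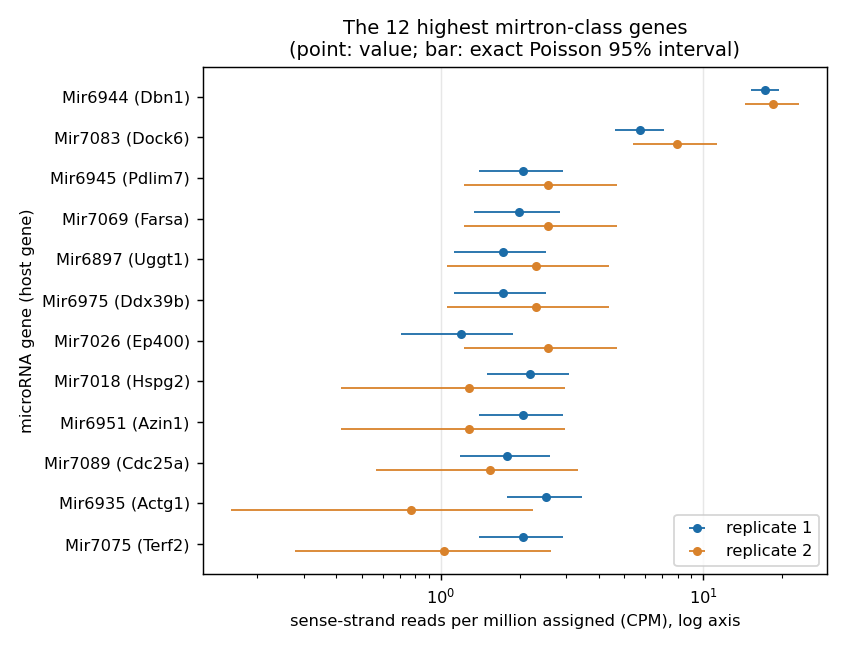
Level of the 12 highest mirtron-class genes in CPM on a log axis, ordered by mean level with the host gene in brackets; points are single libraries (blue replicate 1, orange replicate 2) and bars exact Poisson 95% intervals. Mir6944 and Mir7083 stand apart on the right, and the bars of the genes below them overlap widely.

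The main positional classes had the same median count. The 150 genes with only the 3′ end at a splice site had a median of 5 counts in replicate 1 and summed to 77.5 ± 7.02 CPM. The 15 with both ends there also had a median of 5 counts and summed to 23.9 ± 0.532 CPM, of which Mir6944 gave 17.8 CPM. Both medians equal that of the whole class, and the largest single level, that of Mir6944, was in the smaller class. The 4 genes with only the 5′ end at a splice site summed to 1.44 ± 0.219 CPM, and the 8 with neither end to 4.60 ± 0.710 CPM.

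Known mirtrons outside the number range lay above and below the highest member. Mir877 in Abcf1 had 997 and 273 counts (68.0 ± 2.74 CPM), and Mir1224 in Vwa5b2 had 103 and 32 (7.51 ± 0.970 CPM). Both fill an intron of 85 bases exactly. Mir702 in Plod3 had 573 and 124 counts (34.9 ± 4.39 CPM), with its 3′ end 2 bases short of the intron's end and its 5′ end 9 bases into the exon. Mir6944 lay between Mir1224 and Mir702. Among other whole-intron genes outside the range, named after their values were seen, Mir3102 had 71.7 ± 6.11 CPM. Mir1982 had 4.13 ± 0.683 CPM and Mir3547 2.20 ± 0.868 CPM.

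Reads at these genes came from the annotated strand. On the opposite strand the class had 2 counts of 1565 in replicate 1 (0.128%, 95% Wilson interval 0.0351 to 0.465%). In replicate 2 it had 0 of 435, with an upper bound of 0.875% by the same interval. The 2 counts fell on Mir7091 and Mir7088, 1 each. Over all gene rows the opposite strand held 2.89% and 3.10% of the counts. These came from 73 rows in replicate 1 and 36 in replicate 2, so most of the 1973 rows had none. No member had more opposite-strand than sense counts with at least 10 reads.

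Reads from a host exon could enter some members. On the same strand, 39 of the 177 genes overlapped an annotated exon of another gene, including exons of transcripts that retain the intron, and these gave 20.4 ± 0.584 CPM of the class's 107.5. Their median was 5 counts in replicate 1, equal to the median of the 138 without such an overlap, which summed to 87.1 ± 6.14 CPM. Mir6944 and Mir7083 overlap no exon, while Mir6945, Mir6935 and Mir7025 do. The part of host fragments in the counts was not tested.

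No member was called different between the libraries. Of 417 genes with at least 20 counts summed over both libraries, 155 (37.2%) had an adjusted p under 0.05 in an exact binomial test (two-sided, adjusted after Benjamini and Hochberg over these genes), against 0 of the 22 members tested. The test compares these 2 libraries and no condition. At an unadjusted p under 0.05 there was 1 member, Mir6935, with 2.52 CPM in the first and 0.769 CPM in the second library (log2 difference of replicate 2 over replicate 1 -1.71, 95% counting interval -4.05 to -0.056; adjusted p = 0.0834 by the exact binomial test). For Mir6944 the log2 difference was 0.10 (-0.30 to 0.48) and for Mir7083 it was 0.46 (-0.18 to 1.07).

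This does not show equal levels, since the members' counts were low. Over both libraries they summed to a median of 33 against 1478 over all tested genes, and the median interval spanned 3.10 log2 units. Of the 22, 12 were higher and 10 lower in replicate 2. Their median log2 difference was 0.10, against 0.05 for all tested genes, and their median absolute difference was 0.44. Of the 85 other genes with 20 to 100 counts, whose median absolute difference was 0.48, 4 were called. Across all 177 members, Spearman's rho between the libraries' counts was 0.68, and 0.67 without Mir6944 and Mir7083. Genes are not independent replicates, and both series share their many ties at low counts.

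Without the minimum of 20 counts, 5 of the 146 members with a count passed the same exact test, beside 19.8% of 768 genes. Of the 152 genes called among these 768, 110 were higher in replicate 2. All 5 members called were higher in replicate 2, on few reads. Mir7049 had 7 counts in replicate 1 and 10 in replicate 2, and Mir7041 had 5 and 7. Mir6984 had 3 and 6, Mir6986 had 1 and 5, and Mir6969 had 0 and 3. The last 3 were named after their values were seen. Mir6969 lies in Clps, the gene of pancreatic colipase, and Mir6986 in Rce1, a protease of prenylated proteins. Mir7076, in the pancreatic chymotrypsinogen gene Ctrb1 and also named after its value was seen, had 0 counts in both libraries. Outside the class, genes known from pancreas and foregut organs, named after their values were seen, were also called higher in replicate 2 in the test with the minimum. Mir802 had 24 and 533 counts, and the log2 differences were 1.20 for Mir375, 1.84 for Mir216b and 0.84 for Mir217. Mir375 is also known from hormone cells of the gut. Over all 417 genes tested, 24.9% were called higher in replicate 2. The intestinal epithelial genes listed beforehand were called higher too. Their log2 differences were 0.14 for Mir192, 0.59 for Mir194-1, 0.41 for Mir194-2 and 0.43 for Mir215. Whether pancreas or foregut tissue has a part in the members' counts was not tested. Because replicate 2 is shallower, 2 counts can reach an unadjusted p under 0.05 when both fall there, while 17 are needed when all fall in replicate 1, so genes with few reads can be called almost only in that direction.

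**Figure D5:**
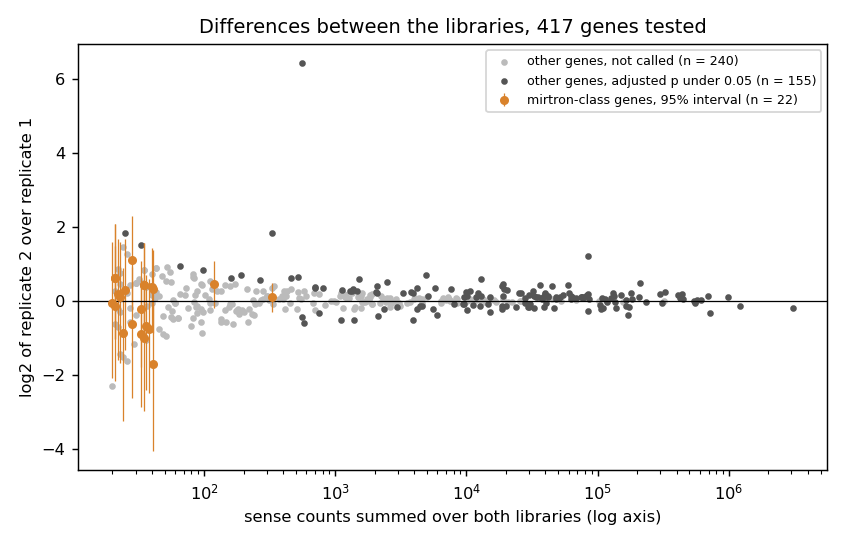
Log2 of replicate 2 over replicate 1 against the counts summed over both libraries (log axis) for the 417 tested genes; orange points are the 22 mirtron-class genes with 95% counting intervals, dark grey other genes with an adjusted p under 0.05 and light grey the rest. The members crowd at the low end, and the interval of every member except Mir6935 includes 0.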

How the data were processed

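Small RNA reads of 2 libraries were used as the deposited whole-number counts per gene, 1 table per library. Per the file headers that accompany the tables, the authors aligned reads to mm10 and used GENCODE release M4; the aligner and counting program are not given in the sources used here. The values show 3 count columns: both strands together, the annotated strand and its opposite. Rows of reads assigned to no gene entered neither totals nor tests: unaligned reads were 12.4% and 13.8% of all reads and reads with several alignments 26.5% and 26.6% in replicates 1 and 2.

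Members were found through GENCODE release M21 (GRCm38, the same assembly), and all 177 identifiers had the same version there. The members, lists and tests were chosen with earlier results of these data known. Sense counts were scaled to CPM over the 1973 gene rows. Introns came from transcripts of other, non-microRNA genes on the same strand, with 5 bases allowed. Hairpin and mature sequences came from RefSeq (GRCm38.p6), folded with RNAfold 2.7.2. Genes named are the 25 highest by mean CPM with a count in each library, of which 1 is not reported here; others are said to be chosen after their values were seen, apart from the markers and mirtrons listed beforehand and the examples of positional classes, seeds and opposite-strand counts. As 1 count weighs more in replicate 2, the mean favours genes high there. Differences were tested with the exact binomial test in SciPy 1.17.1, checked on simulated data. The simulated counts varied by counting error only and were scaled to the totals of the unchanged genes. The check therefore does not cover variation between samples or shifts in composition. Alternatives used edgeR 4.0.16 and DESeq2 1.42.0 scaling. Whether replicates came from separate animals rests on the labels.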

Additional observations from a re-analysis of the deposited data

How the results depend on the processing

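Leaving out genes that share sequence removed none and so tested nothing. Only the 160 members with a RefSeq hairpin could be compared, and none of them shared sequence. The summed level stayed within its spread between libraries under both-strand counts and under edgeR and DESeq2 scaling. It ran from 103.6 to 111.4 CPM over single libraries. It was 60.7 CPM with all reads in the table as the total, 89.7 CPM without Mir6944 and, in a setting chosen after the data were seen, 87.1 CPM without genes overlapping an exon. The number of detected genes depended on the minimum and on depth: 5 at 10 counts in both libraries, 108 at 1, 19 at 5, 2 at 20, 146 with 1 count in either library, 3 with replicate 1 thinned to equal depth, and 6 to 47 over single libraries. With no minimum for the exact binomial test, 5 members were called of 146 with a count, beside 19.8% of 768 genes. All 5 had at most 17 counts and were higher in replicate 2, as were 110 of the 152 genes called among the 768. Tests and log2 differences cannot be had from 1 library. With 0 or 10 bases allowed, 14 or 18 hairpins had both ends at splice sites (15 as reported). The opposite-strand share, 0.1%, was 0 and 0.128% in single libraries and 0.05% without the gene with most such counts. The median log2 difference of the tested members, 0.10, was 0.37 with at least 10 counts in both libraries, 0.20 with no minimum, 0.02 with edgeR and 0.0077 with DESeq2 scaling, so its size depends on the setting. Of 28 single-gene levels, 22 moved beyond their spread with all reads as the total, and none with both-strand counts or edgeR or DESeq2 scaling. With 2 libraries, either one lies within 1 SD of their mean by construction, so leaving one out tests nothing for these levels: Mir7049 was 0.464 and 2.56 CPM and Mir7041 0.331 and 1.79 CPM in replicates 1 and 2. No paired analysis was possible because the design holds 1 group.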

Other observations

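Host genes with a pair of members gave no case of a strong pair. Cmip held Mir7077 and Mir7078, both with 0 counts in each library. Srebf1, a regulator of lipid synthesis, held Mir6921 (4 and 2 counts in replicates 1 and 2) and Mir6922 (2 and 2). Arap3 held Mir6980 (7 and 1) and the whole-intron Mir6981 (8 and 1). Skiv2l, a helicase of RNA decay, held the whole-intron Mir6970 (3 and 2) and, at the end of another intron, Mir6971 (21 and 3). These pairs were chosen after the annotation was examined and were not tested.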
